A study of Homo sapiens with 24 samples.

Results

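The 38 genes described here encode the machinery that copies DNA and the factors that start it, from the origin recognition complex and the MCM helicase to the replicative polymerases, the sliding clamp, nucleotide supply and the cyclin E and E2F1 genes of the G1/S transition. They form a list by what their products do, and all 38 were found by symbol among the 58051 gene identifiers of the files. Their RNA was measured in clones of 3 established human colorectal cancer cell lines, HT29, HCT116 and SW480, in which CTNNB1, the gene for β-CATENIN, was either wild type (WT) or knocked out (KO). HT29 and SW480 carry inactivating APC mutations and HCT116 an activating CTNNB1 mutation, so that WNT/β-CATENIN signaling is constitutively active in the parental cells. The KO clones had lost exon 7 of both CTNNB1 alleles through CRISPR/Cas9, which shifts the reading frame. For each line 2 WT and 2 KO clones were sequenced in rounds A and B, which gave 4 libraries per line and genotype and 24 in all. A library is named by clone and round, as in KO 38B. Each clone grew from a single sorted cell, and the 4 libraries of a group therefore stand for 2 clones and not for 4 independent knock-outs. The comparisons address whether CRC cells change the expression of their replication genes when β-CATENIN is lost, and whether the lines do so alike.

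DNA replication is prepared in G1, when the origin recognition complex, CDC6 and CDT1 load the MCM helicase onto DNA. Cyclin E with CDK2, and E2F factors released from RB, then drive entry into S phase, in which CDC45, MCM10 and the GINS complex switch the helicase on and primase and the polymerases synthesize DNA. Most of these genes are transcribed in late G1 and S phase under E2F control, so their RNA is commonly high in proliferating tissue such as the intestinal crypt and in CRC cells.

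The libraries held 22297049 to 29068378 reads assigned to genes (median 27486226). The targeted gene was lower in every KO than in every WT library, with CTNNB1 values for HT29 of 6021 ± 99.3 in WT and 299.8 ± 34.1 in KO libraries, for HCT116 of 11918 ± 999.9 in WT and 218 ± 28.9 in KO libraries and for SW480 of 46967 ± 4376 in WT and 1024 ± 229 in KO libraries (mean ± SD, n = 4). Of the 6 colon epithelium markers searched, none was at its floor of 3 reads or fewer in all libraries of a group, and their summed values ran from 130755 to 741025. The 6 fibroblast, 5 leukocyte and 3 endothelium markers summed to at most 1210, 328 and 234 in any library. Some of these sums moved with the genotype, the fibroblast markers from 12.2 to 22.5 in HT29 WT and 109 to 1210 in HT29 KO libraries, and in SW480 the leukocyte markers from 50.5 to 66.7 in WT and 158 to 221 in KO and the endothelium markers from 10.6 to 27.4 and 118 to 234. Of the markers of these 3 cell types, 2 to 5 of each list were at 3 reads or fewer in every HT29 and SW480 library of a group. In HCT116 fewer were: 4 fibroblast, 3 leukocyte and 1 endothelium marker in WT, and 1, 2 and 0 in KO libraries. PECAM1, planned for the endothelium list, was not among the matched genes. The part of the sums in the results was not tested. In HCT116 the library KO 47A had 35449 genes with a value above 0, against 20256 to 24944 in the other 23 libraries. The cause of this was not tested. In HT29 the library KO 38B stood apart. Rounds A and B of clone KO 38 differed with an SD of 0.93 on the log2 scale over all genes, against 0.36 to 0.53 for the other 11 clones, and over the 38 genes the SD was 0.59 against 0.10 to 0.22. In KO 38B the median log2 ratio to the WT mean was 0.55 for the tercile of genes with the shortest exons and −0.33 for the tercile with the longest. The other 23 libraries lay between −0.15 and 0.16 for the short and between −0.13 and 0.11 for the long tercile. By rank correlation (Spearman's rho) of this ratio with exon length, KO 38B was at −0.31 and did not stand alone. HCT116 WT 4A was at −0.40, HCT116 WT 6B at 0.31 and HT29 WT 11B at −0.30. The HT29 calls of the 38 genes below are given with and without this library, and those of further genes with it only. Values below are normalized counts, that is reads divided by a size factor per library. The 16 members whose exons overlap those of other counted genes in the annotation used, among them MCM7, RFC5, PRIM1, GINS1, GINS2, GINS4 and TYMS, were read with a kit that does not mark the strand, so that reads in the shared exons cannot be assigned with certainty.

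The number of replication genes past the threshold varied between the lines, and so did the share of all genes past it. In SW480, 17 of the 38 genes (44.7%) were lower in KO libraries and 0 higher, where 22.1% of all 16325 genes tested were lower and 26.1% higher (limma, adjusted p under 0.05 after Benjamini-Hochberg adjustment over all genes tested). In HCT116, 4 were lower (10.5%) and 1 was higher (2.63%), against 5.93% and 8.05% of 15404 genes. In HT29, 0 were lower and 0 higher, against 0.476% and 2.08% of 14921 genes. At an unadjusted p under 0.05 the HT29 count was 4, or 10.5% where 16.2% of all genes did so, and with edgeR and with DESeq2 it was 0 after adjustment. Reads of bulk cultures cannot tell fewer cells in S phase from less RNA per cell. No member passed the additional fold threshold of the study, an absolute log2 fold change over 1, in any line, while the share of all genes that did was 2.30% for HT29, 5.06% for HCT116 and 17.5% for SW480. For the 38 genes together the middle log2 fold change (median) was −0.22 in SW480, −0.14 in HCT116 and −0.16 in HT29, beside medians over all genes tested of −0.0042 in SW480, −0.01 in HCT116 and 0.03 in HT29. The fold change was negative for 30 members in SW480, 30 in HCT116 and 25 in HT29. Over all genes tested it was negative for 8218 of 16325 in SW480, 7966 of 15404 in HCT116 and 7018 of 14921 in HT29. Among the 38 members it was negative in all 3 lines for 19, among them MCM2, MCM4, MCM5, MCM6 and MCM7, and positive in all 3 for 0. The share of all genes with 1 sign in all 3 lines was not counted, so these numbers have no background beside them.

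**Figure D1:**
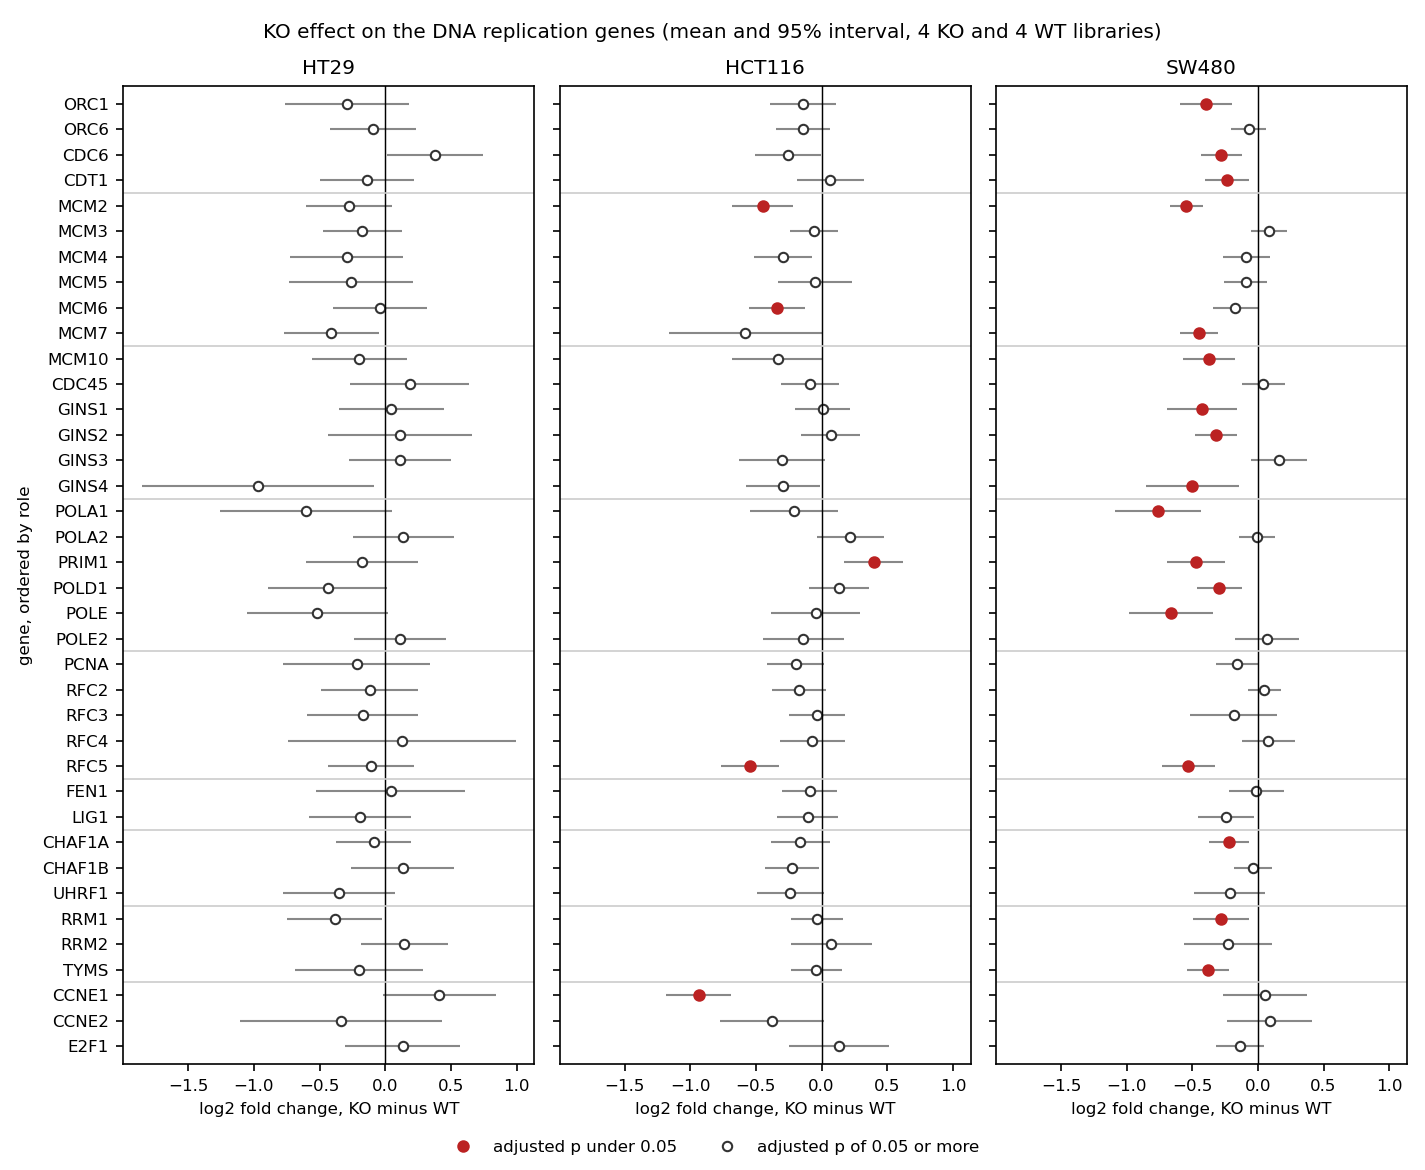
Log2 fold change, KO minus WT, of each of the 38 genes in HT29, HCT116 and SW480, with 95% intervals from limma over 4 KO and 4 WT libraries, and filled points for an adjusted p under 0.05. In SW480 17 filled points lie below 0, in HCT116 4 lie below and 1 above 0, and HT29 has none.

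By role, the SW480 counts of lower genes, to be read beside the 22.1% of all genes that were lower, were uneven. Of the 4 genes for origin recognition and licensing, 3 were lower, with ORC1, the largest subunit of the origin recognition complex, at −0.39 on the log2 scale (adjusted p = 0.0044), CDC6 at −0.28 (adjusted p = 0.0074) and CDT1 at −0.23 (adjusted p = 0.027). ORC6 was at −0.07 and did not pass. Of the 6 genes for helicase activation, 4 were lower, namely GINS1, GINS2, GINS4 and MCM10, and CDC45 and GINS3 had values of 0.04 and 0.16. Of the 6 polymerase and primase genes, 4 were lower, namely POLA1, PRIM1, POLE and POLD1. The accessory subunit genes POLA2 and POLE2 had values of −0.01 and 0.07. Among the 6 genes of the MCM helicase 2 were lower, MCM2 and MCM7, and the other members ranged from −0.17 in MCM6 to 0.08 in MCM3. The clamp and its loader had 1 of 5 lower, RFC5, with PCNA, the clamp itself, at −0.16 (adjusted p = 0.11). Of the nucleotide supply genes 2 of 3 were lower, TYMS, which makes thymidylate, at −0.38 and RRM1, the large subunit of ribonucleotide reductase, at −0.28. Among the chromatin genes 1 of 3 was lower, the chromatin assembly factor CHAF1A at −0.22. Of the Okazaki fragment genes FEN1 and LIG1 0 of 2 passed, and of CCNE1, CCNE2 and E2F1 0 of 3, with values from −0.13 to 0.09.

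The SW480 member with the largest fold change was POLA1, which encodes the catalytic subunit of polymerase α (ENSG00000101868, chromosome X from 24711990 to 25015103, GRCh37). POLA1 was at 3727, 3462, 3519 and 3442 in the WT and 2561, 2531, 1560.3 and 1867 in the KO libraries. All KO libraries lay below all WT libraries, and those of clone KO 21 were the lowest. The KO mean was 60.2% of the WT mean, with a log2 fold change of −0.76 (standard error 0.15, adjusted p = 0.0017). POLE (ENSG00000177084, chromosome 12 from 133200339 to 133263962), the catalytic subunit of the leading strand polymerase, had 2023, 2161, 1906 and 1844 in the WT and 1519, 1528, 1030.0 and 1022 in the KO libraries. Again no KO value reached the WT range, and the log2 fold change of −0.66 (standard error 0.14, adjusted p = 0.0034) corresponded to 64.3% of the WT mean. PRIM1 (ENSG00000198056, chromosome 12 from 57124222 to 57146158), the catalytic primase subunit, had 1581, 1494, 1598 and 1510.1 in the WT and 1288, 1224, 1037 and 939 in the KO libraries, with a log2 fold change of −0.47 (standard error 0.10, adjusted p = 0.0029). The groups did not overlap.

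For MCM2 (ENSG00000073111, chromosome 3 from 127317253 to 127341279), a subunit of the helicase ring, the SW480 values were 9272, 9479, 8738 and 9358 in the WT and 6538, 6195, 6205 and 6318 in the KO libraries. The KO values lay within a narrow range in both clones, at 68.5% of the WT mean (log2 fold change −0.54, standard error 0.06, adjusted p = 2.3e-05). MCM7 (ENSG00000166508, chromosome 7 from 99689856 to 99699563) had 25667, 23616, 24077 and 24782 in the WT and 18597, 19079, 16331 and 18048 in the KO libraries (log2 fold change −0.45, standard error 0.07, adjusted p = 0.00028). MCM3 of the same ring had 6522, 6897, 6500.0 and 7142 in the WT and 7333, 6802, 7114 and 7445 in the KO libraries, and these groups overlapped (95% interval of the log2 fold change −0.05 to 0.22). RFC5 (ENSG00000111445, chromosome 12 from 118451393 to 118470935), a subunit of the clamp loader, had 1880.0, 1774, 1795 and 1775 in the WT and 1369.5, 1419, 1103 and 1139 in the KO libraries (log2 fold change −0.53, standard error 0.09, adjusted p = 0.00075). RFC2 and RFC4, which belong to the same loader, had log2 fold changes of 0.05 and 0.08 with overlapping groups. The subunits of the helicase ring and of the clamp loader thus had unequal fold changes in SW480.

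Of the GINS complex, which links CDC45 to the helicase, GINS1 (ENSG00000101003, chromosome 20 from 25371644 to 25433336) had 1862, 1700.0, 1534 and 1550.2 in the WT and 1514, 1296, 1026 and 1144 in the KO libraries (log2 fold change −0.43, standard error 0.12, adjusted p = 0.013). GINS4 (ENSG00000147536) had 727, 717, 532 and 698 in the WT and 547, 579, 375 and 406 in the KO libraries, with a log2 fold change of −0.50 (standard error 0.16, adjusted p = 0.025). Its groups overlapped, since the WT 5A value was below both values of KO 17. Over the list, every KO library lay below every WT library for 18 of the 38 genes in SW480 and above for 0, where 20.9% and 25.3% of all genes tested did so. For 14 of the 17 called genes the lowest KO value came from clone KO 21. Between clones KO 21 and KO 17, 13 members were lower and 1 was higher in KO 21, where 28.0% of all genes differed in either direction. POLA1 differed by −0.58 (standard error 0.08, adjusted p = 0.00010) and POLE by −0.57 (standard error 0.07, adjusted p = 3.8e-05). RRM2, the small subunit of ribonucleotide reductase, differed by −0.53 (adjusted p = 0.0039) although it did not pass against WT, and RFC3 was the member that was higher in KO 21 (0.39, adjusted p = 0.0027). Between WT 5 and WT 4, 3 members differed, RFC3 and RFC4 higher and CCNE1 lower in WT 5, beside 8.88% of all genes. The error of these clone comparisons is the spread between rounds. Without clone KO 21 the count of lower members in SW480 was 14, without clone KO 17 it was 21 and without clone WT 4 it was 9. When rounds A and B of each clone were added up, so that 2 clones stood against 2, POLA1, MCM2, RFC5 and MCM7 passed, with adjusted p between 0.017 and 0.047, and the count was 4.

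**Figure D2:**
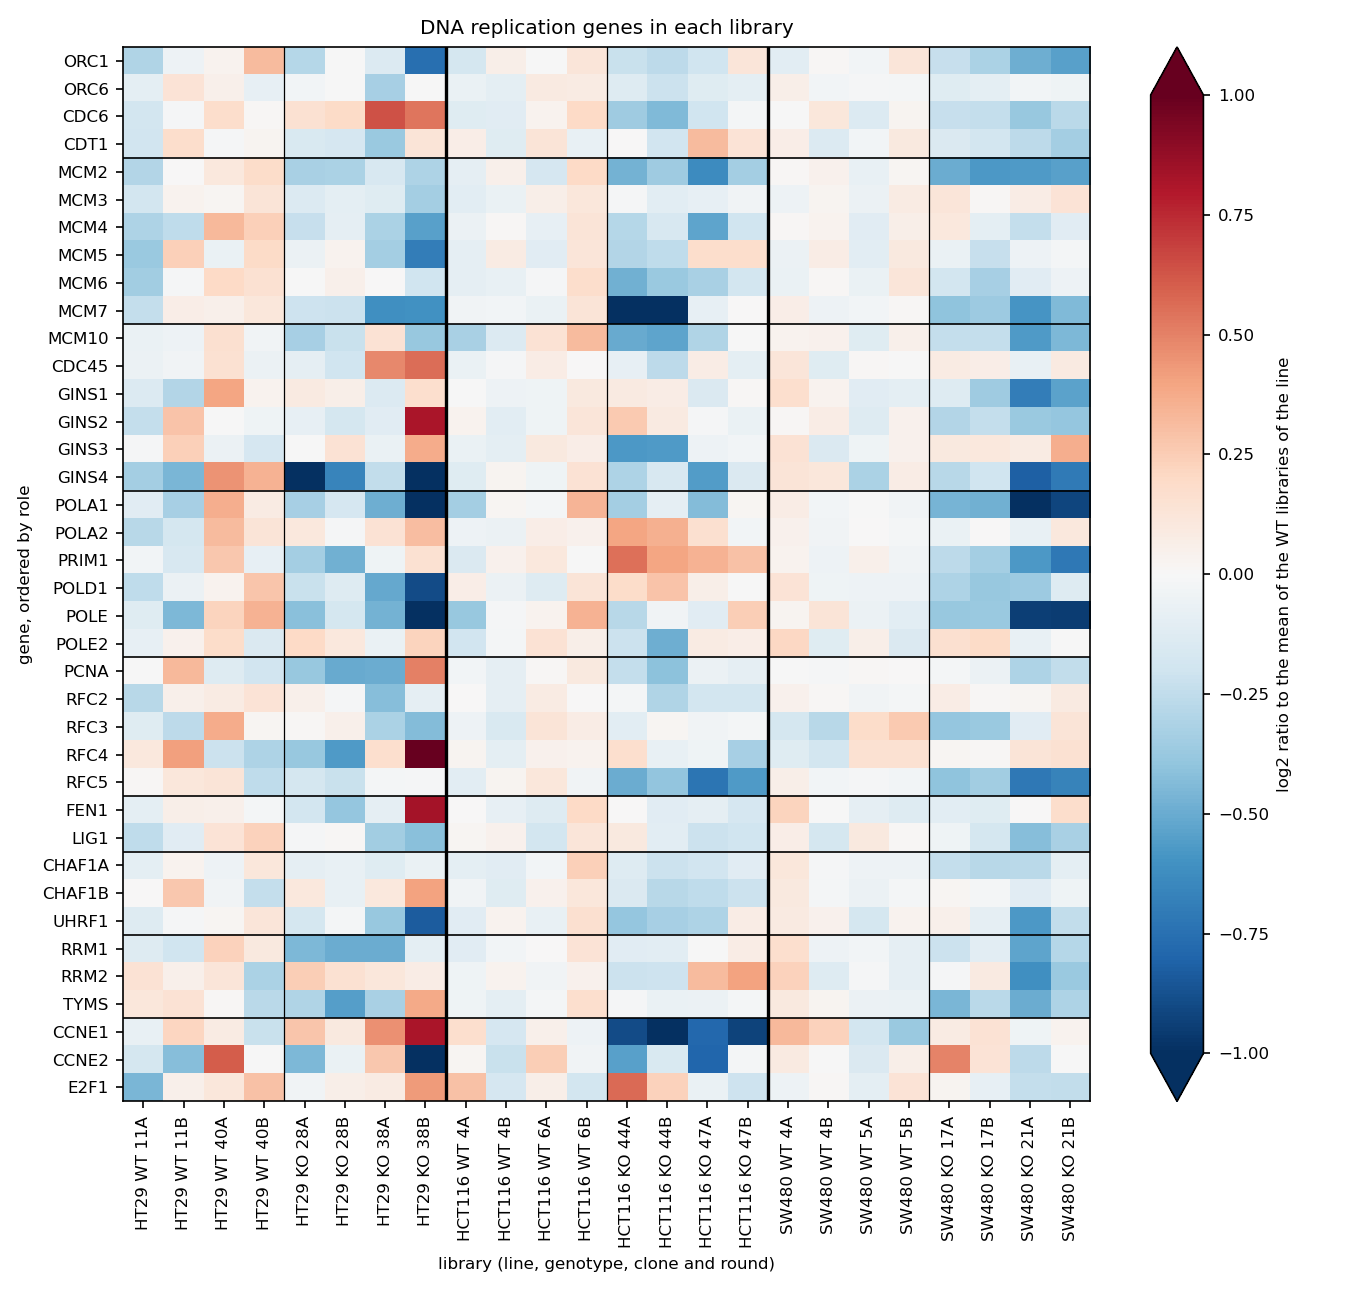
Log2 ratio of each of the 38 genes to the mean of the WT libraries of its line, in the 24 libraries, with genes ordered by role and the color scale ending at −1 and 1. The SW480 KO columns are blue for POLA1, POLE and MCM2, MCM7 is blue in both HCT116 KO 44 libraries and near 0 in KO 47, and HT29 KO 38B differs from the other HT29 KO columns.

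In HCT116 the largest change was in CCNE1, which encodes cyclin E1, the partner of CDK2 at the G1/S transition (ENSG00000105173, chromosome 19 from 30302898 to 30315219). CCNE1 was at 3068, 2433, 2824 and 2641 in the WT and 1471, 1228, 1589 and 1441 in the KO libraries. Every KO library was below every WT library, and the KO mean was 52.2% of the WT mean (log2 fold change −0.94, standard error 0.11, adjusted p = 0.00034). It passed in each of the 23 alternative analyses, also with the reads of a clone summed (adjusted p = 0.015). The related CCNE2 had 499, 423, 584 and 481 in the WT and 339, 445, 284 and 487 in the KO libraries, with overlapping groups and a log2 fold change of −0.38 (standard error 0.18, adjusted p = 0.19). E2F1, a transcription factor of the same step, had values of 1184, 861, 1006 and 853 in the WT and 1433, 1135, 926 and 836 in the KO libraries, and its 95% interval ran from −0.25 to 0.51.

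The other HCT116 members that passed were RFC5, MCM2 and MCM6, which were lower, and PRIM1, which was higher. RFC5 was at 3286, 3588, 3819.9 and 3445 in the WT and 2506, 2684, 2126 and 2379.9 in the KO libraries (log2 fold change −0.55, standard error 0.10, adjusted p = 0.0049). MCM2 was at 9428, 10349, 8929 and 11510.1 in the WT and 7229.6, 7801, 6476 and 7915 in the KO libraries (log2 fold change −0.45, standard error 0.11, adjusted p = 0.017). MCM6 (ENSG00000076003, chromosome 2 from 136597196 to 136634013) was at 8393, 8499, 8841 and 10058 in the WT and 6392, 6917, 7134 and 7844 in the KO libraries (log2 fold change −0.34, standard error 0.10, adjusted p = 0.039). For these 3 genes the groups did not overlap. MCM4 had KO libraries from 10978 to 14176 and WT libraries from 14999.5 to 17271, with an adjusted p of 0.076, and of 0.035 with the round as a replicate block. PRIM1 was at 1178, 1347, 1399.9 and 1301 in the WT and 1913, 1709.7, 1660.2 and 1601 in the KO libraries, with every KO above every WT library (log2 fold change 0.40, standard error 0.10, adjusted p = 0.026). RFC5 and MCM2 were the members that passed as lower in both HCT116 and SW480. With the reads of a clone summed, the adjusted p was 0.12 for RFC5, 0.13 for MCM2, 0.28 for MCM6 and 0.27 for PRIM1, so that CCNE1 alone of the 5 passed there.

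Over the list, 7 members in HCT116 had every KO below every WT library and 1 above, beside 9.61% and 10.9% of all genes. The role groups that held called genes were the MCM helicase with 2 of 6 lower, the clamp loader with 1 of 5, the G1/S genes with 1 of 3 and the polymerases and primase with 1 of 6 higher. The groups for licensing, helicase activation, Okazaki fragments, chromatin and nucleotide supply had 0 called, with log2 fold changes from −0.33 in MCM10 to 0.07 in RRM2. MCM7 differed between the KO clones. It was at 17440.2, 17584, 17105 and 19635 in the WT and 8347, 8073, 16905 and 17985 in the KO libraries, and both rounds of KO 44 lay far below the WT range while KO 47 overlapped it. The difference between the KO clones was 1.09 (standard error 0.11, adjusted p = 0.00033), and against WT the log2 fold change of −0.58 (standard error 0.26, adjusted p = 0.17) did not pass. RRM2 was at 17422, 17434, 25154 and 26700.0 in KO libraries, also higher in KO 47 by 0.57 (adjusted p = 0.0088). With GINS3 and MCM5, 4 members were higher in KO 47 than in KO 44, where 7.16% of all genes differed in either direction, and 0 differed between WT 6 and WT 4, where 2.61% did (1 member had an unadjusted p under 0.05, where 17.7% of all genes did). Without clone KO 47, 7 members were lower and 2 higher in HCT116 KO, and without clone WT 6, 1 was lower and 0 higher. The share of all genes called without these clones is not given.

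In HT29 no member passed. The 3 members with the largest fold changes were GINS4, POLA1 and POLE. GINS4 was at 183, 168, 317 and 296 in the WT and 113, 147, 195 and 59.6 in the KO libraries (log2 fold change −0.97, standard error 0.39, adjusted p = 0.26). POLA1 was at 1107, 953, 1547 and 1269 in the WT and 955, 1070.5, 856 and 443 in the KO libraries (log2 fold change −0.60, standard error 0.29, adjusted p = 0.35). POLE was at 2602, 2068, 3305 and 3599 in the WT and 2121, 2504, 2043 and 1399 in the KO libraries (log2 fold change −0.52, standard error 0.24, adjusted p = 0.32). In each of these genes the lowest value was that of KO 38B and the groups overlapped. Without KO 38B the log2 fold changes were −0.65 for GINS4, −0.33 for POLA1 and −0.35 for POLE, the median over the 38 genes was −0.13, and 0 members passed. With the reads of a clone summed CTNNB1 itself had an adjusted p of 0.068 in HT29. KO 38B also held the highest HT29 values of other members. RFC4 was at 4197 there and at 1948 in KO 38A, PCNA at 17104 and 8550.1, and FEN1 at 12584 and 6628.

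All 6 MCM helicase genes had negative fold changes in HT29, from −0.41 in MCM7 to −0.04 in MCM6, with 95% intervals that reached −0.77 for MCM7. CDC6 and CCNE1 had the largest positive values, 0.38 (95% interval 0.01 to 0.74) and 0.41 (−0.02 to 0.84). CCNE1 was at 1104, 1350.2, 1231 and 993 in the WT and 1411, 1241, 1592 and 2045 in the KO libraries. A fall of the size seen for MCM2 in SW480, −0.54, lies within the HT29 interval of MCM2, −0.60 to 0.05. For 0 members did the HT29 groups separate, in either direction, where 4.71% of all genes were lower and 8.31% higher in every KO library. Between clones KO 38 and KO 28, CDC45 and RFC4 were higher in KO 38 (16.0% of all genes differed in either direction), and between WT 40 and WT 11 0 members passed (9.02% of all genes), with 4 at an unadjusted p under 0.05, where 21.5% of all genes were. CDC45 was at 3174, 2944, 4737 and 4998 in KO libraries, where both rounds of KO 38 were the higher ones. Without KO 38B the difference between the KO clones was 0.63 for CDC45 (adjusted p = 0.019) and 0.64 for RFC4 (adjusted p = 0.032), where it had been 0.67 and 1.20, with 20.6% of all genes past the threshold and the lone KO 38 library assumed to vary like the others. This fit was added after seeing the data.

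**Figure D3:**
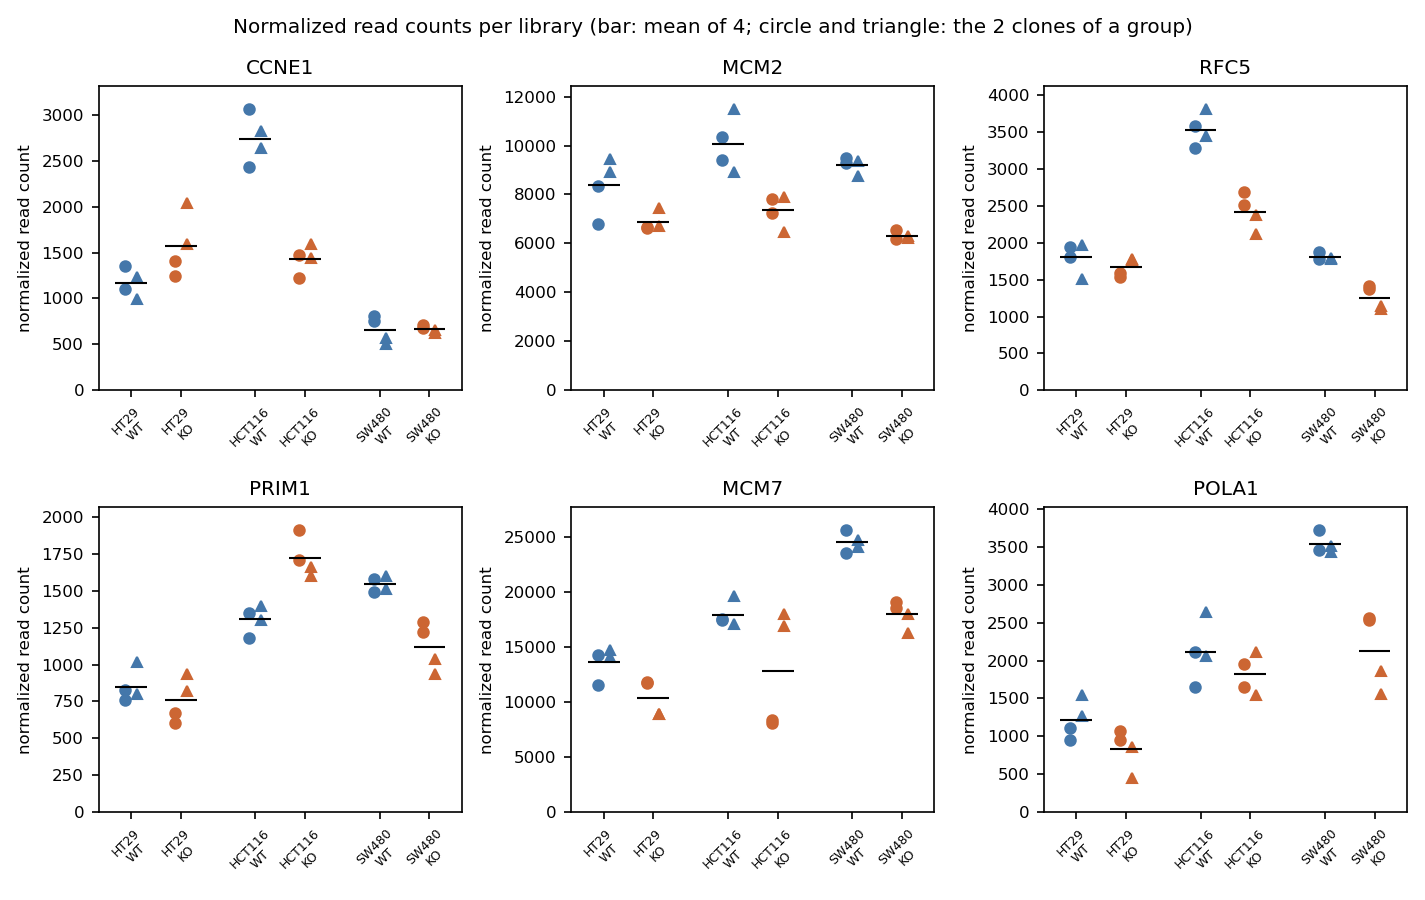
Normalized read counts of CCNE1, MCM2, RFC5, PRIM1, MCM7 and POLA1 per library, with the axis from 0, blue for WT and orange for KO, a circle and a triangle for the clones of a group, and a bar at the mean of 4 libraries. CCNE1 falls from 2741 to 1432 in HCT116, PRIM1 is higher in HCT116 KO and lower in SW480 KO, and MCM7 splits by clone in HCT116 KO.

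Each pair of lines was then compared for the size of its KO effect. Between HT29 and HCT116 it passed for 2 of 38 members, where 7.25% of all genes passed, between HT29 and SW480 for 1, where 15.8% did, and between HCT116 and SW480 for 2, where 13.2% did. CCNE1 differed by 1.35 (standard error 0.22, adjusted p = 0.00042) between HT29 and HCT116 and by −0.99 (standard error 0.22, adjusted p = 0.0033) between HCT116 and SW480. In SW480 CCNE1 was at 809, 755, 567 and 499 in the WT and 684, 712, 625 and 660.5 in the KO libraries, with overlapping groups. PRIM1 rose in HCT116 and fell in SW480, and the difference was 0.87 (standard error 0.19, adjusted p = 0.0024). CDC6, which loads the helicase, had a more positive KO effect in HT29 than in HCT116, by 0.63 (standard error 0.17, adjusted p = 0.023), and than in SW480, by 0.66 (standard error 0.17, adjusted p = 0.0085). Its HT29 values were 3168, 3568, 4057 and 3618 in the WT and 3994, 4095, 5569 and 5187 in the KO libraries, and those of SW480 were 4730.2, 5123, 4315 and 4818 in the WT and 4028, 4016, 3646 and 3929 in the KO libraries. For the other 35 members no difference passed. Without HT29 KO 38B, PRIM1 also differed between HT29 and HCT116, by −0.68 (adjusted p = 0.015), and the CCNE1 and CDC6 differences were 1.21 (adjusted p = 0.00056) and 0.58 (adjusted p = 0.034), with CDC6 at 0.61 (adjusted p = 0.014) between HT29 and SW480. MCM2, for example, differed by 0.27 (standard error 0.14, adjusted p = 0.24) between HT29 and SW480, and POLA1 by 0.55 (standard error 0.31, adjusted p = 0.29) between HCT116 and SW480. With the reads of a clone summed 0 members passed for any pair, with adjusted p from 0.13 to 0.44 for these 5 differences.

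In WT clones, PCNA had the highest level per length of exon in each line, at 8677 ± 1451 normalized reads per kb in HT29, 11788 ± 637 in HCT116 and 8249 ± 67.3 in SW480 (SD, n = 4). The lowest were GINS4 in HT29 at 44.3, POLA2 in HCT116 at 85.7 and CCNE2 in SW480 at 95.8. These lengths are the joined exons of all annotated transcripts, which makes long models such as POLA1, with 15547 bases, look low. Among the lines, HCT116 had the highest WT mean for 24 members, SW480 for 10 and HT29 for 4. Between HT29 and HCT116, 26 members were lower and 6 higher in HT29, where 58.4% of all genes differed in either direction. Between HT29 and SW480 the numbers were 16 lower and 9 higher in HT29 (60.3% of all genes), and between HCT116 and SW480, 6 lower and 20 higher in HCT116 (60.5%). The widest range belonged to CCNE1, whose WT level in HCT116 was above that in HT29 by 2.35-fold and above that in SW480 by 4.23-fold, as ratios of geometric means (adjusted p = 4.7e-07 and 9.0e-11). In HCT116 KO the level of CCNE1, 1432 ± 150.1, stood beside 1169.7 ± 155 in HT29 WT and 657 ± 148 in SW480 WT. POLE2 was highest in HCT116 and E2F1 highest in SW480, at 2744 ± 199.6 against 1896 ± 388 in HT29 and 976 ± 156 in HCT116. For GINS1 and FEN1 no pair of lines passed.

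**Figure D4:**
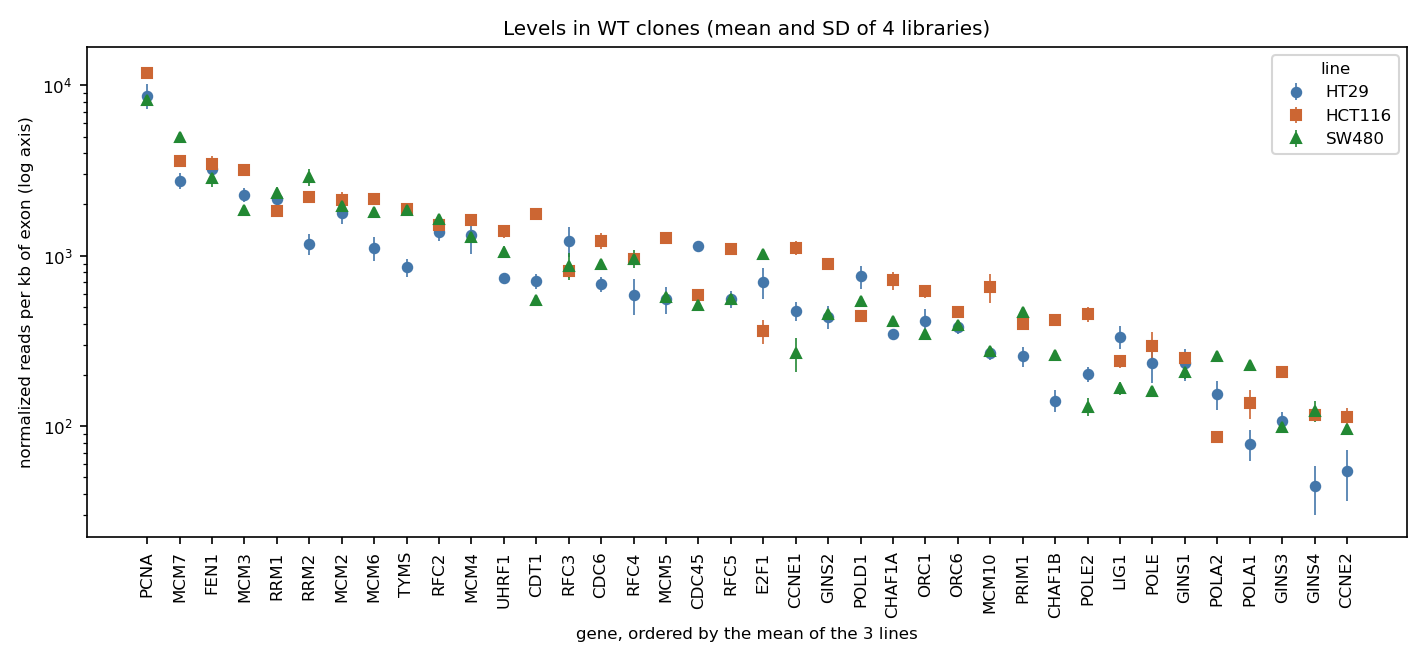
Level of the 38 genes in WT clones as normalized reads per kb of joined exon length, on a log axis, for HT29 (circles), HCT116 (squares) and SW480 (triangles), with the SD of 4 libraries. PCNA is highest in each line, and CCNE1 spans 267 in SW480 to 1114 in HCT116.

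Because E2F factors and TCF/LEF factors, the DNA-binding partners of β-CATENIN, both act at promoters, the RefSeq promoter windows of the members (GRCh38.p14, 250 bases before to 50 after the transcription start) were searched on both strands for the E2F words TTTCCCGC, TTTCGCGC, TTTGCCGC and TTTGGCGC and the TCF/LEF words CTTTGAT and CTTTGAA. Windows were given for 34 members, 6 of them with more than 1 start, and MCM4, MCM5, GINS4 and CCNE2 were not searched. An E2F word occurred in 19 of the 34 members and in 20 of their 43 windows, that is in 46.5%, where 3.32% of all 35116 windows held one. A TCF/LEF word occurred in 0 of the 43 windows, where 6.86% of all windows held one, and its absence says only that these letters are not in these windows. Of the 17 members lower in SW480, 9 of 16 with a window had an E2F word, and of the 21 others 10 of 18. The stretches before the start are shown for members that turned up in the comparisons, first MCM2, MCM6, POLA1 and POLE with E2F words, then CCNE1, RFC5 and PRIM1 without. Capitals mark the letters of an E2F word on either strand, and TTTCGCGC and TTTGGCGC overlap with a reverse word in MCM2 and MCM6. The sequences run 5′ to 3′ along the gene's strand, from 200 bases before the start to the last base before it, and for MCM2 from 180 before to 20 after it. On GRCh38.p14 they lie at chr3:127598231-127598430 (plus strand) for MCM2, chr2:135876444-135876643 (minus strand) for MCM6, chrX:24693718-24693917 (plus) for POLA1, chr12:132687343-132687542 (minus) for POLE, chr19:29811791-29811990 (plus) for CCNE1, chr12:118016503-118016702 (plus) for RFC5 and chr12:56752324-56752523 (minus) for PRIM1.
MCM2: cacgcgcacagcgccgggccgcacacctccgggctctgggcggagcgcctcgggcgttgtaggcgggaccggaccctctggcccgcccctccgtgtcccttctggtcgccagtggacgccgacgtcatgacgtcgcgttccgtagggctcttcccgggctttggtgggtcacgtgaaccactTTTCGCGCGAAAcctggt
MCM6: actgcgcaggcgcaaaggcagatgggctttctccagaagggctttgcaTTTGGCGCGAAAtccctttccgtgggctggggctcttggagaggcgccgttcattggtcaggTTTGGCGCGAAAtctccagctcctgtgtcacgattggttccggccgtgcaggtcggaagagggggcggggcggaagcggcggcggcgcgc
POLA1: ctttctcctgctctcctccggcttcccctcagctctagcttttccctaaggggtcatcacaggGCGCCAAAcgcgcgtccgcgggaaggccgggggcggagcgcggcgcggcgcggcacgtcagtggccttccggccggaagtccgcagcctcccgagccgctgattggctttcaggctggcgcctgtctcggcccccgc
POLE: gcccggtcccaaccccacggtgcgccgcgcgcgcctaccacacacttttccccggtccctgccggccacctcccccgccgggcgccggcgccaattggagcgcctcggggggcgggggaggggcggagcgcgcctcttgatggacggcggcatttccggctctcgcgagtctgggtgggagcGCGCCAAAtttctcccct
CCNE1: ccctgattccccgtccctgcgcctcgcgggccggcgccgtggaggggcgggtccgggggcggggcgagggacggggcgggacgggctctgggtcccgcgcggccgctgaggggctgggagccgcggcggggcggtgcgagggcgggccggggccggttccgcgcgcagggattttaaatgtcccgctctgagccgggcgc
RFC5: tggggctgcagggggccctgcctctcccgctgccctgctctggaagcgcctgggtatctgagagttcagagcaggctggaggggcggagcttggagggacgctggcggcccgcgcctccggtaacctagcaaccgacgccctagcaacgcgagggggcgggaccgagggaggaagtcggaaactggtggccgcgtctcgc
PRIM1: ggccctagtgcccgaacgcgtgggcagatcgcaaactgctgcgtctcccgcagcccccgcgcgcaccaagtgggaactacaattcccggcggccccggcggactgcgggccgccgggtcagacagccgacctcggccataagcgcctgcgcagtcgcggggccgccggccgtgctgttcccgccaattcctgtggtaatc

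MCM6 holds the same 12 bases, TTTGGCGCGAAA, at 2 places, and in MCM2 the first word begins at position 3 of the transcript. RFC5 and MCM2, which were lower in both HCT116 and SW480, differ in whether these words are present, as do POLE and PRIM1, which were lower in SW480. A match is a description of the letters and not of factor binding.

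Other genes of the pathway were taken from a list of 55 further replication genes, which gave 17 lower and 3 higher in SW480, 1 lower and 1 higher in HCT116, and 0 lower and 1 higher in HT29. These counts and those of the lists that follow stand beside 22.1% of all genes lower and 26.1% higher in SW480, 5.93% and 8.05% in HCT116, and 0.476% and 2.08% in HT29. The medians of the 55 genes were −0.16 in SW480, −0.09 in HCT116 and −0.15 in HT29. In SW480 the lower genes, of which 3 were picked here after their values were seen, included RECQL4, a helicase for origin firing, at 1888 ± 228 in WT and 1245 ± 67.6 in KO libraries (log2 fold change −0.60, adjusted p = 0.00033), CDC7, the kinase that activates the helicase, at 1061 ± 80.8 in WT and 813 ± 65.8 in KO libraries (log2 fold change −0.38, adjusted p = 0.0040), and E2F2 at 461 ± 19.3 in WT and 307 ± 36.8 in KO libraries (log2 fold change −0.59, adjusted p = 0.00079). The gene that passed as higher in HT29 was POLD4, the smallest polymerase δ subunit, at 87.8 ± 18.9 in WT and 408 ± 206 in KO libraries (log2 fold change 2.10, adjusted p = 0.018), and it was also higher in SW480 (log2 fold change 1.43, adjusted p = 3.9e-05). With the reads of a clone summed, the adjusted p was 0.58 for POLD4 in HT29 and 0.082 for CDC7, which no longer passed, and 0.0055 for POLD4 in SW480, 0.027 for RECQL4 and 0.036 for E2F2. Of 22 mitosis genes 7 were lower in SW480 (median −0.37), 1 in HT29 (median −0.53) and 0 in HCT116, where 2 were higher (median 0.07). In SW480 the KO 21 libraries had mitosis medians of −0.88 and −0.52 and the KO 17 libraries of −0.19 and 0.09, beside replication medians of −0.29 and −0.25 in KO 21 and −0.13 and −0.18 in KO 17. Among the CDK inhibitors and D cyclins, which act upstream of the G1/S transition, 4 of 12 were lower and 5 higher in SW480. In HT29 0 of 11 passed, and 4 of the 11 had an unadjusted limma p under 0.05, where 16.2% of all genes did. In HCT116 3 of 11 were higher. The HCT116 genes were CDKN1B, CDKN2C and CDKN2D, of which CDKN1B and CDKN2D did not pass with the reads of a clone summed (adjusted p = 0.076 and 0.18), and CDKN2C had 254 ± 40.0 in WT and 610.0 ± 58.2 in KO libraries (log2 fold change 1.27, adjusted p = 0.00028). In SW480 CDKN2B had 451 ± 43.1 in WT and 2269 ± 465 in KO libraries (log2 fold change 2.31, adjusted p = 4.5e-07). The SW480 log2 fold changes of these 12 genes ran from −2.36 to 2.31, with 8 positive, 4 negative and a median of 0.25. Of the called genes, 3 had a log2 fold change over 1 and 1 had one below −1.

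Exon length was set beside the fold changes, since long and short transcripts moved apart in some libraries. Across all genes tested, Spearman's rho between exon length and the log2 fold change came to −0.16 for HT29, −0.02 for HCT116 and 0.12 for SW480. Across the 38 members it was −0.28, −0.08 and −0.31, and both HT29 values include KO 38B. Genes are not independent replicates, and the points of a line share its 8 libraries. In SW480 the tercile of all genes with the longest exons had a median of 0.05 and the shortest of −0.10. The part of exon length in the members' fold changes was not tested. The median exon length was 4715 bases for the 17 members lower in SW480 and 4135 for the other 21.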

How the data were processed

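RNA was sequenced from WT and KO clones of HT29, HCT116 and SW480 with a library kit that does not mark the strand. Per the labels and the methods of the study, the authors aligned reads to GRCh37 with STAR 2.7.5b, counted them per gene with featureCounts 2.0.1 and normalized them with DESeq2 2.11.40.6. The deposited values are a signal per gene, reads divided by a size factor. Dividing by the value of 1 read returned whole reads for 100% of values within 0.05, and sums of these gave the depth. The deposited files also hold fold changes and p-values of the authors' comparisons, which were not used.

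Values were tested as log2(value + 1) with limma 3.58.1 (trend and robust, R 4.3.3, two-sided) over genes that reached 10 in 4 or more of a line's 8 libraries, or of all 24 between lines, with Benjamini-Hochberg adjustment over all genes tested. Fold changes on this scale understate those of low genes. Alternatives were edgeR 4.0.16 and DESeq2 1.42.0 on the recovered reads, other scalings, pseudocounts and filters, the round as a block, reads summed per clone, clone as a random effect, and each library or clone left out. Leaving out libraries between lines and for the HT29 KO clones was added after seeing the data. The limma fit was also run on simulated data, in which libraries were drawn independently and clones of a genotype did not differ. That run therefore cannot speak to the spread between clones. Same-round libraries of HCT116 deviated together in 6 of 6 pairs (correlation 0.182 to 0.374), which pairs its rounds, in HT29 in 2 and in SW480 in 1 of 6.

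The members and lists were chosen with earlier results of these data known. Named with full statistics were, per line, up to 8 members with an adjusted p under 0.05 and the largest fold changes, or in HT29 the 3 largest, and other values were picked after they were seen. Gene positions and exon lengths came from GENCODE v44lift37, since the annotation release of the authors is not given in the sources used here. Symbols were matched for 95.8% of identifiers. The libraries of a clone are not separate knock-outs, so p-values measure the spread of these libraries. Figures were drawn with matplotlib 3.10.9.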

Additional observations from a re-analysis of the deposited data

Results flagged for a closer look

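In 16 of the 234 groups of 4 libraries examined, 1 library of a member lay far from the other 3 by Dixon's criterion, which chance meets in about 1 of 20 groups. Of these, 4 were in HT29 KO 38B, namely MCM3 at 6555, GINS2 at 2452, PCNA at 17104 and RRM1 at 8428 normalized counts, in the library whose short and long transcripts also moved apart. In HT29 KO 38A the same held for ORC6 at 1293 and MCM2 at 7434, and in HT29 WT 40A for MCM10 at 1625 and CDC45 at 3765. In HCT116 it held for RFC4 in WT 4B at 2677 and for ORC1 at 2089 and UHRF1 at 7535 in KO 47B. In SW480 it held for MCM10 at 1380.3 and GINS4 at 532 in WT 5A, POLD1 at 2944 in WT 4A, CDC45 at 1444 in KO 21A and GINS3 at 649 in KO 21B.

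The KO effect differed between lines for 3 members in 5 of 114 tests (limma, adjusted over all genes). On the log2 scale, the effect on CCNE1 in HT29 exceeded that in HCT116 by 1.35 (adjusted p = 0.00042), and that in HCT116 minus that in SW480 was −0.99 (adjusted p = 0.0033). For CDC6, HT29 minus HCT116 was 0.63 (adjusted p = 0.023) and HT29 minus SW480 was 0.66 (adjusted p = 0.0085). For PRIM1, HCT116 minus SW480 was 0.87 (adjusted p = 0.0024).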

How the results depend on the processing

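The count of HT29 members was 0 in both directions under each alternative run. With the reads of a clone summed, 1 member was lower and 0 higher in HCT116, 4 were lower in SW480, and the KO effect differed for 0 members between each pair of lines. With the clone as a random effect, 2 were lower and 0 higher in HCT116, and without a filter 0 were higher there. Leaving out libraries or clones in turn, the count of lower members ran from 1 to 7 in HCT116 and from 9 to 21 in SW480, and of higher members from 0 to 2 in HCT116 and 0 to 1 in SW480. The HCT116 count of lower members was 2 without WT 4B, clone WT 4 or clone KO 44, 1 without clone WT 6 and 7 without clone KO 47. PRIM1 as the higher member was lost without KO 44A, KO 44B, WT 4A, WT 4B or WT 6B, and without clones KO 44, WT 4 or WT 6. In SW480, 9 were lower and 1 higher without clone WT 4. The between-line counts ran from 1 to 3 (HT29 and HCT116), 1 to 2 (HT29 and SW480) and 2 to 2 (HCT116 and SW480). For HT29 and HCT116 the count was 1 without HCT116 KO 44A, KO 44B or WT 6B, and 3 without HT29 KO 28B, KO 38B or WT 11A; in the former the adjusted p of CDC6 was 0.051 to 0.058. For HT29 and SW480 it was 2 without HT29 KO 28B or WT 40A or SW480 KO 17A or KO 17B. The medians ran from −0.19 to −0.07 in HT29, −0.22 to −0.05 in HCT116 and −0.26 to −0.15 in SW480 over left-out libraries, with no change of sign. With the round as a replicate block, 5 members were lower and 1 higher in HCT116, 17 and 0 in SW480 and 0 and 0 in HT29, MCM4 of HCT116 being the added call. Over all genes, DESeq2 called 355 lower and 874 higher in HT29 where limma called 71 and 311, and edgeR on the recovered reads called 63 and 264 there, 911 and 1303 in HCT116 and 3670 and 4177 in SW480. For the 13 named members that were called, the call held in 255 of 299 alternatives and was lost in 44, and for the 3 named HT29 members, which were not called, it was absent in all 69, with no change of direction in either. The causes were not tested. Each genotype rests on 2 clones per line, and a clone left out leaves 1 clone in its group. For left-out libraries or clones, summed reads and the random effect, the share of all genes called is not given. Shifts in those member counts therefore cannot be told from shifts over all genes.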
